A study of Mus musculus with 6 samples.

Results

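The mitosis genes are 34 genes that act in the G2 and M phases of the cell cycle, taken by symbol from the 38087 genes of the deposited expression table. Each symbol matched 1 row. All 34 passed the filter on low values, as did 18899 genes in all. RNA was sequenced after poly-A selection from macrophages grown out of bone marrow. The donors were C57BL/6J males, 8 to 10 weeks old by the treatment protocol. In 3 libraries the cells had been exposed to 10 nM RvD1 (resolvin D1) for 6 h, and 3 libraries came from untreated cells. Cultures of both groups had received 10 ng/ml of macrophage colony-stimulating factor (M-CSF) for 7 days and were then kept for 24 h without it. RvD1 is a lipid mediator made from docosahexaenoic acid, with ALX/FPR2 as a receptor. No vehicle is named for the untreated cells. The labels do not tie libraries to separate mice or cultures, so the p-values measure only how these samples varied, and that variation may be technical.

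Cells enter mitosis when cyclin B binds and activates the kinase CDK1. Polo-like and Aurora kinases then build the spindle, kinetochores hold the chromosomes to it, and the spindle checkpoint keeps the anaphase-promoting complex (APC/C) silent until every chromosome is attached. Most of these genes are transcribed late in the cycle, under repressor and activator complexes that act at CHR and CCAAT elements of their promoters. M-CSF is the main mitogen of cultured macrophages.

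Values are log2 normalized read numbers, and a difference of 1 is a 2-fold change. Depth, estimated from the step that stands for 1 read, was 9.05 to 14.3 M reads in untreated and 11.1 to 16.3 M in RvD1 libraries. Every mitosis gene had at least 106 estimated reads in every library. The 10 macrophage markers were all present, with a mean log2 value of 12.31 to 12.65 in untreated and 12.37 to 12.72 in RvD1 libraries. All 8 fibroblast and stromal markers were detected too. Their summed level was 43244 to 51417 normalized reads in untreated and 40145 to 62621 in RvD1 libraries, most of it collagen. The 10 neutrophil and granule markers summed to 4191 to 14616 and 5397 to 14232, and the 6 endothelial markers to 409 to 683 and 542 to 1469. The 7 progenitor markers summed to 191 to 233 and 161 to 253, and the 7 dendritic cell markers to 152 to 157 and 138 to 162. Erythroid and megakaryocyte markers (9) summed to 7436 to 8665 and 6640 to 7715, nearly all from Pf4, while Hbb-b1 and Hbb-b2 were at 0 in every library. The 8 T and NK cell markers summed to 60.6 to 121 and 57.8 to 153, with Cd3e and Cd3g at 0 in every library. The 6 B cell markers summed to 331 to 432 and 436 to 547, with Ms4a1 and Pax5 at 0. In these 9 lists 0 markers passed the limma test, and by unadjusted p under 0.05 there were 4 higher and 2 lower ones. Among all tested genes 10.3% were higher and 9.65% lower by that p. Log2 fold changes were positive for all 6 endothelial markers (median 0.66), 7 of 8 stromal (0.21) and 8 of 10 neutrophil markers (0.20). They were negative for 5 of 7 progenitor (-0.33) and 4 of 5 tested erythroid and megakaryocyte markers (-0.17). The groups overlapped for every endothelial and stromal marker. The part of other cell types in the values of the mitosis genes was not tested.

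The promoters of 29 of the 34 genes could be read from RefSeq on GRCm38.p6, from 250 bases before the transcription start to 50 bases from it on. The other 5 are Aurkb, Ccna2, Incenp, Kif20a and Tpx2. A CHR match, spelled TTTGAA or TTCGAA and sought on both strands, was held by 23 of the 29 (79.3%), against 19.4% of the windows of 27025 genes. A CCAAT match was held by 22 (75.9%), against 37.9%. Both together stood in 20 of the 29 (69.0%), against 7.70% of all windows. The windows below belong to the 4 genes with the smallest p-values among those with lower values after RvD1 (Ccnb2, Cdc20, Ccnb1 and Plk1) and to Mki67, the member with the highest fold change. Capitals mark CHR and CCAAT matches, and a CCAAT match on the other strand reads ATTGG. In order they are chr9:70421505-70421804 (minus strand), chr4:118437294-118437593 (minus strand), chr7:122159185-122159484 (plus strand), chr13:100786437-100786736 (minus strand) and chr7:135716330-135716629 (minus strand).
Ccnb2: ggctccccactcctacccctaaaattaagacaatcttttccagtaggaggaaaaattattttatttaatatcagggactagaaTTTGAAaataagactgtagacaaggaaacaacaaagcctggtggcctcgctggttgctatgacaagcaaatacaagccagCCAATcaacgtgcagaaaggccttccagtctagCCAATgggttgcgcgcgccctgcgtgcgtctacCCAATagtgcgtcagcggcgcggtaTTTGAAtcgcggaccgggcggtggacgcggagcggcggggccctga
Cdc20: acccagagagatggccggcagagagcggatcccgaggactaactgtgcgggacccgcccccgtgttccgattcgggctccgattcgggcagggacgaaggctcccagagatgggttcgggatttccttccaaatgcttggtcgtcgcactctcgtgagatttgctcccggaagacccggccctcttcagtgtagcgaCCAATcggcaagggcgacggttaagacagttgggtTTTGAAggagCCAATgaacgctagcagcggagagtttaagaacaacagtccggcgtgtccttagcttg
Plk1: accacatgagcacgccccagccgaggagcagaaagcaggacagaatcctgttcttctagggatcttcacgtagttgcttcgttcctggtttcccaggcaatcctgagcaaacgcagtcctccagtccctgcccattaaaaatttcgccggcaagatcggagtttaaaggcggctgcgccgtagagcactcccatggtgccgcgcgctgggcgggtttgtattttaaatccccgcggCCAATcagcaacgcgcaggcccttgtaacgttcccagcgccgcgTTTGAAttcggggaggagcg
Ccnb1: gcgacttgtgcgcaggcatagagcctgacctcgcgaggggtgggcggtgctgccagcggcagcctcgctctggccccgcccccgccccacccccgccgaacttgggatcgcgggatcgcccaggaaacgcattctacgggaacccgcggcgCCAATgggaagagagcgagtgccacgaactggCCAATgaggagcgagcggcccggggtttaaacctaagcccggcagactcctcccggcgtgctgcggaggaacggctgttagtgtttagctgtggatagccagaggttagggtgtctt
Mki67: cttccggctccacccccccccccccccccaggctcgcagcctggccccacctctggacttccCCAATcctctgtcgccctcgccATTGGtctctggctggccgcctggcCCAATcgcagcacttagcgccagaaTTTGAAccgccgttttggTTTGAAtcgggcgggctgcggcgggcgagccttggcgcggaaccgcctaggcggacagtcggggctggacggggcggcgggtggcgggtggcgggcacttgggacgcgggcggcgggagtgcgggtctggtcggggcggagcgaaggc

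Ccnb2 held 3 CCAAT matches, at -87, -54 and -21, and a CHR match at 4, where the start base is 0. Its other CHR match lay further away, at -167. Cdc20 had CCAAT at -53 and -8 and CHR at -18. Plk1 had CCAAT at -14 and CHR at 30. Ccnb1 had CCAAT at -99 and -67 and no CHR match in the window. Mki67 held both motifs, like Ccnb2, Cdc20 and Plk1, with CHR at -116 and -98 and CCAAT at -188, -166 and -141. The 23 genes with a CHR match had log2 fold changes from -0.57 to 0.27 (median -0.09), and the 6 without one had values from -0.35 to 0.11 (median 0.07). These values are not corrected for transcript length or GC content. Cenpe, Mad2l1, Nuf2 and Nusap1, which have no CHR match, were positive. After the correction described below they stood at -0.09, -0.16, -0.06 and -0.07. Genes with and without a match were not compared after the correction. A match is a description of the sequence, and no binding was measured.

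After RvD1, the mitotic cyclin Ccnb2 fell, and it was the 1 member of 34 to pass the limma test over all genes (2.94%). Of all tested genes 1.12% passed in either direction and 0.556% as lower. No member passed in the other direction, in which 0.561% of all genes did. Negative fold changes were found in 23 of the 34 (67.6%, against 49.2% of all genes), and the median was -0.08, against 0.00 over all genes tested. Groups did not overlap in 8 members (23.5%), all of them lower after RvD1, where 12.8% of all genes were apart in that direction. No member was apart in the higher direction, as 12.6% of all genes were. By the unadjusted limma p (under 0.05), 9 members were lower (26.5%, against 9.65% of all genes) and 1 was higher (2.94%, against 10.3%). The median of the 34 was -0.02 without untreated replicate 1 and -0.03 without RvD1 replicate 2. It was -0.13 without untreated replicate 2 and -0.14 without RvD1 replicate 1. In bulk RNA, fewer cells in mitosis and less RNA per cell cannot be told apart.

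**Figure D1:**
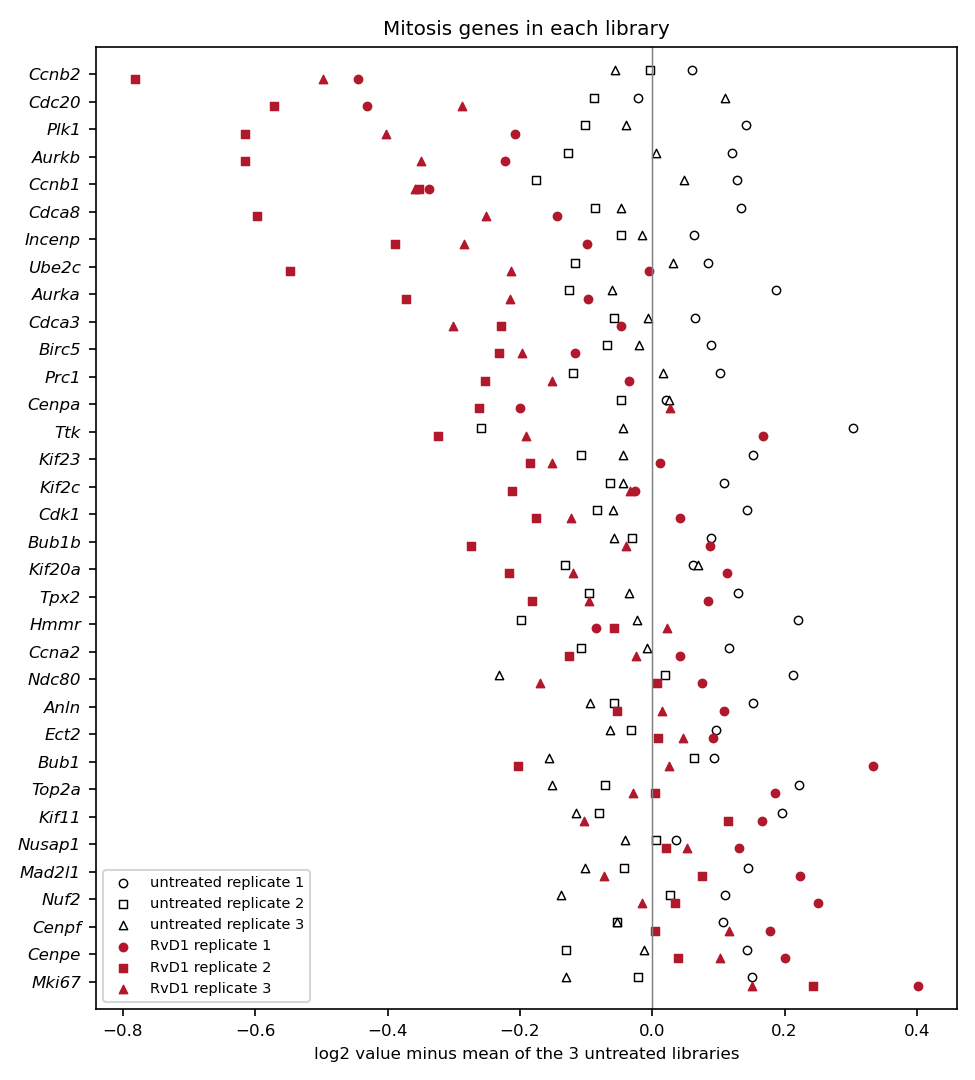
Log2 value of each of the 34 mitosis genes in each library, minus the mean of the 3 untreated libraries, with genes ordered by fold change. Open symbols are untreated and filled symbols RvD1 libraries, with 1 shape per replicate number. At the top, Ccnb2 to Incenp have all RvD1 values below all untreated values, and at the bottom Mki67 lies mostly to the right.

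Cyclin B2, encoded by Ccnb2 (ENSMUSG00000032218, mm10 chromosome 9, 70407692 to 70421547, minus strand), is a partner of CDK1. It stood at 8.31, 8.25 and 8.20 (log2) in untreated replicates 1, 2 and 3 and at 7.81, 7.47 and 7.75 in the RvD1 replicates. Every RvD1 value lay below every untreated value, and RvD1 replicate 2 was the lowest. The log2 fold change was -0.57 (SE 0.10, 95% interval -0.81 to -0.34), with 3 libraries in each group and limma adjusted p = 0.0446. The call ended when any library but RvD1 replicate 1 was left out: limma adjusted p was 0.123, 0.167 and 0.126 without untreated replicate 1, 2 or 3, and 0.146 and 0.127 without RvD1 replicate 2 or 3. Without RvD1 replicate 1 it was 0.0404. Across these fits the log2 fold change ran from -0.64 to -0.47. A pseudogene, Ccnb2-ps, had a mean of 2.56 and a log2 fold change of -0.01 (SE 0.43), far below the level of Ccnb2.

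Ccnb1, which encodes cyclin B1 (chromosome 13), stood at 8.70, 8.40 and 8.62 in untreated replicates 1, 2 and 3 and at 8.24, 8.22 and 8.22 after RvD1. The groups were apart, and the 3 RvD1 libraries were nearly level. The log2 fold change was -0.35 (95% interval -0.55 to -0.15; limma adjusted p = 0.0854). The processed pseudogene Ccnb1-ps was counted at 7.93, 7.48 and 7.67 in untreated and 7.29, 7.06 and 7.24 in RvD1 libraries (log2 fold change -0.49 with SE 0.13, limma adjusted p = 0.0948). Reads of such copies may be split between them, so the level of Ccnb1 is uncertain. The polo-like kinase Plk1 (chromosome 7), which drives centrosome maturation and mitotic entry, had 9.12, 8.88 and 8.94 in untreated and 8.77, 8.36 and 8.58 in RvD1 libraries. Its groups did not overlap either, and RvD1 replicate 2 was again lowest. Its log2 fold change was -0.41 (95% interval -0.66 to -0.16; limma adjusted p = 0.101).

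Not all genes of mitotic entry had such values. Ccna2, the cyclin of S phase and early G2, had a log2 fold change of -0.04 (95% interval -0.20 to 0.13), and its partner kinase Cdk1 one of -0.08 (-0.27 to 0.10). The spindle kinase Aurka stood at -0.23 (-0.46 to 0.01) and its activator Tpx2 at -0.06 (-0.26 to 0.13). None of these 4 passed, and their groups overlapped. After the correction for transcript length and GC content described below, Ccna2, Cdk1, Aurka and Tpx2 stood at -0.10, -0.16, -0.18 and -0.14. Ccnb2, Ccnb1 and Plk1 then stood at -0.56, -0.43 and -0.28. The log2 value of Ccnb2 minus that of Ccna2, a pair chosen after the values were seen, was -2.07, -1.91 and -2.07 in the untreated replicates 1, 2 and 3. After RvD1 it was -2.50, -2.67 and -2.49. This difference holds gene length as well, and it changed by -0.54 between the groups. For Ccnb1 minus Ccna2 the change was -0.31, from -1.68, -1.76 and -1.64 to -2.08, -1.92 and -2.03. Neither change was corrected for length or GC effects that differ between libraries. Ccna2 shares exon bases with Exosc9 on the opposite strand, which had a mean of 8.93 and a log2 fold change of 0.12 (SE 0.08). Shared reads cannot be told apart.

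The chromosomal passenger complex corrects faulty attachments and directs the cut between daughter cells. Its 4 genes, the kinase Aurkb and its partners Incenp, Birc5 (survivin) and Cdca8 (borealin), were all apart and all lower after RvD1, where 12.8% of all genes were apart in that direction. Aurkb stood at 8.82, 8.57 and 8.71 in untreated replicates 1, 2 and 3 and at 8.48, 8.08 and 8.35 in the RvD1 replicates. Incenp, the scaffold, had 10.30, 10.19 and 10.22, and then 10.14, 9.85 and 9.95. Cdca8 had 9.30, 9.08 and 9.12, and then 9.02, 8.57 and 8.91. Birc5 had 9.12, 8.96 and 9.01, and then 8.91, 8.80 and 8.83. RvD1 replicate 2 held the lowest value of each of the 4. The log2 fold changes were -0.40 for Aurkb (95% interval -0.65 to -0.14), -0.33 for Cdca8 (-0.60 to -0.06), -0.26 for Incenp (-0.44 to -0.08) and -0.18 for Birc5 (-0.34 to -0.02). None of the 4 passed over all genes, with limma adjusted p = 0.109, 0.173, 0.128 and 0.195. The median of the 4 was -0.29, and -0.28 after the correction for transcript length and GC content described below. Aurkb, Cdca8, Incenp and Birc5 then stood at -0.33, -0.38, -0.18 and -0.24 (limma adjusted p = 0.300, 0.261, 0.335 and 0.222). Cdca8 shares exon bases with 9930104L06Rik on the opposite strand, which had a log2 fold change of -0.14 (SE 0.09).

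**Figure D2:**
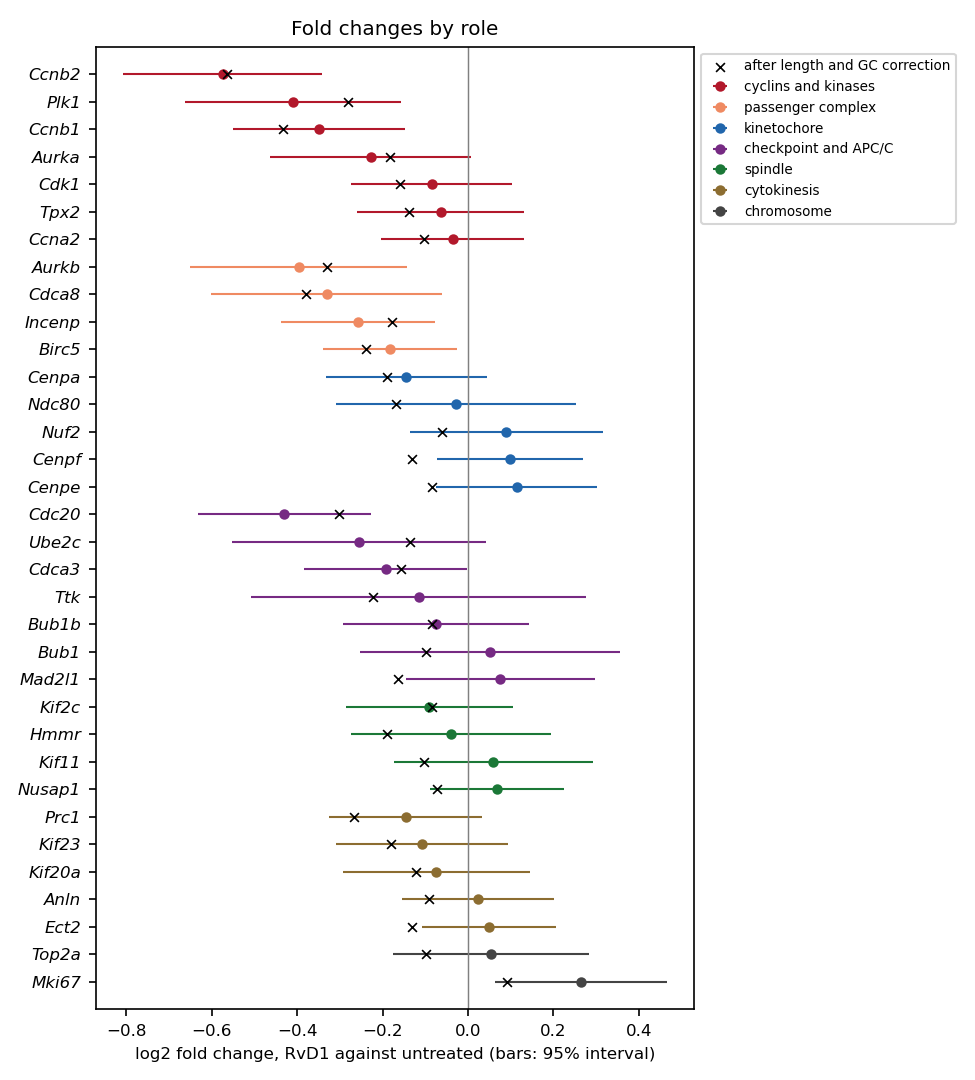
Log2 fold change (x axis, RvD1 against untreated, bars 95% interval of the moderated fit, n = 3 per group) of the 34 genes, coloured and grouped by role. Crosses give the value after the correction for transcript length and GC content. The 4 passenger complex genes have intervals below 0, while the 5 kinetochore genes have intervals that include 0. These intervals are from the uncorrected fit. With the correction the medians are -0.28 for the passenger complex and -0.13 for the kinetochore genes.

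Among the checkpoint and APC/C genes, Cdc20 stood lowest. It encodes the activator that lets the APC/C mark cyclin B and securin for destruction (chromosome 4). Its values were 9.16, 9.09 and 9.29 in the untreated replicates 1, 2 and 3, and 8.75, 8.61 and 8.89 with RvD1. The groups did not overlap. The log2 fold change was -0.43 (95% interval -0.63 to -0.23), and the gene did not pass (limma adjusted p = 0.0603). Its exons overlap those of Elovl1 on the opposite strand, a gene at 10.76, 10.89 and 10.92 in untreated and 10.60, 10.59 and 10.58 in RvD1 libraries (log2 fold change -0.27, limma adjusted p = 0.0640). No strand setting is given in the sources used here, so shared reads cannot be told apart.

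Cdca3, a trigger of mitotic entry, had 8.65, 8.53 and 8.58, and then 8.54, 8.36 and 8.28. Its RvD1 replicate 1 lay above the lowest untreated value, so the groups overlapped (log2 fold change -0.19, 95% interval -0.38 to -0.00; limma adjusted p = 0.248). Ube2c, the conjugating enzyme of the APC/C, had a log2 fold change of -0.26 (-0.55 to 0.04). The checkpoint kinases Ttk and Bub1 and the checkpoint proteins Bub1b and Mad2l1 lay at -0.12, 0.05, -0.08 and 0.08. The intervals of all 4 included 0.

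The groups of the kinetochore genes overlapped. Cenpa, the histone variant that marks centromeres, had a log2 fold change of -0.14 (95% interval -0.33 to 0.04). Ndc80 and Nuf2, arms of the complex that grips microtubules, had -0.03 and 0.09. The motor Cenpe and the large scaffold Cenpf had 0.11 and 0.10. Of the spindle genes, the motors Kif11 and Kif2c had 0.06 and -0.09, and the microtubule-binding proteins Nusap1 and Hmmr 0.07 and -0.04. The cytokinesis genes were Prc1 (-0.15), Kif23 (-0.11), Kif20a (-0.07), Anln (0.02) and Ect2 (0.05). All these intervals included 0, and all groups overlapped. Over the 24 members outside the 10 given here in every library, log2 fold changes ran from -0.26 to 0.11, 14 negative and 10 positive, with limma adjusted p from 0.263 to 0.920. These directions depend on the correction for transcript length and GC content described below, after which all 24 were negative. The share of all genes that were negative was not counted there. With the correction, the median of the 5 kinetochore genes went from 0.09 to -0.13, and that of the 4 spindle genes from 0.01 to -0.09.

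Mki67, which encodes the proliferation marker Ki-67 that coats mitotic chromosomes, had the highest fold change of the 34. Its values were 11.56, 11.39 and 11.28 in the untreated replicates 1, 2 and 3, and 11.81, 11.65 and 11.56 with RvD1. RvD1 replicate 3 and untreated replicate 1 had nearly the same value, so the groups overlapped. The log2 fold change was 0.27 (95% interval 0.06 to 0.47; limma adjusted p = 0.151). Top2a, the topoisomerase that untangles chromosomes, had 0.05 (-0.18 to 0.28). Within a library, Mki67 minus Top2a was -0.00, 0.12 and 0.09 without RvD1, and 0.28, 0.31 and 0.25 with it, a change of 0.21. This pair too was chosen after its values were seen, and its change was not corrected for length or GC content.

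Per kilobase of the longest transcript, untreated levels ran from 47.0 normalized reads for Cenpf to 498 for Top2a, with a median of 164. Ccna2 (416), Incenp (350), Prc1 (350) and Cdc20 (323) followed Top2a. Ccnb2 was near the middle at 199, above Ccnb1 at 153. Mad2l1 (53.4) and Ttk (53.6) lay just above Cenpf. In its lowest library Ccnb2 had 156 estimated reads.

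The members also varied together between libraries of 1 group. Untreated replicate 1 held the highest untreated value in 31 of the 34 genes, and RvD1 replicate 1 the highest RvD1 value in 31. RvD1 replicate 2 held the lowest of all 6 libraries in 20 genes. The mean over the 34 was 9.28, 9.08 and 9.11 in the untreated replicates 1, 2 and 3, and 9.17, 8.94 and 9.04 with RvD1. These means overlapped. For the 7 cyclin and kinase genes the untreated means were 9.20 to 9.43 and the RvD1 means 8.93 to 9.17. For the 4 passenger complex genes they were 9.20 to 9.38 and 8.82 to 9.14. Neither pair of ranges overlapped. For the passenger complex this follows from its 4 genes, since each was apart on its own. For Mki67 and Top2a the untreated and RvD1 means were 11.24 to 11.57 and 11.44 to 11.67, which overlapped. The ranges of the kinetochore, checkpoint and APC/C, spindle, and cytokinesis genes overlapped too. The fibroblast and stromal sum was highest in replicate 1 of each group too (51417 and 62621 normalized reads), and the macrophage sum was lowest there (109921 and 113085).

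**Figure D3:**
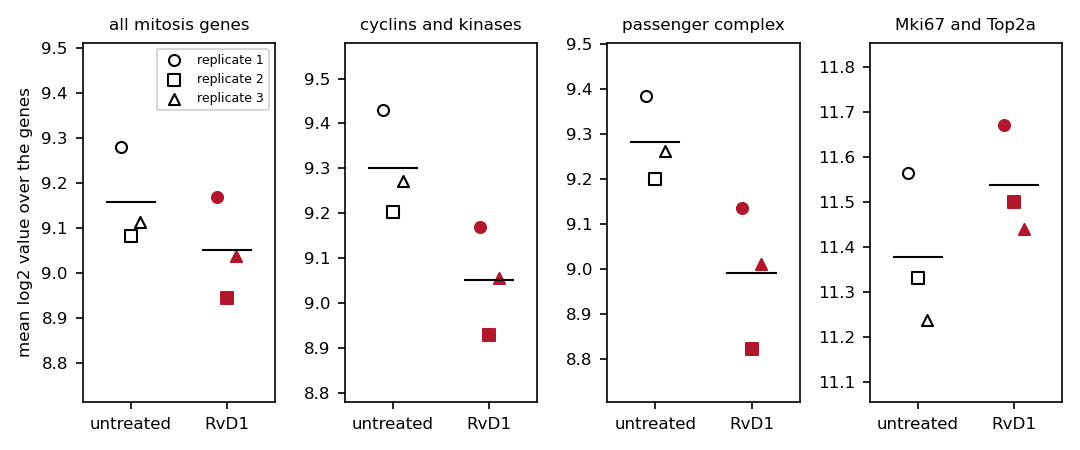
Mean log2 value over all 34 mitosis genes, the 7 cyclin and kinase genes, the 4 passenger complex genes, and Mki67 with Top2a, in each library. Shapes give the replicate number, lines the group mean, and each axis spans the same number of log2 units but not from 0. Replicate 1 is highest in both groups in every panel, and RvD1 lies below untreated without overlap in the middle panels. For the passenger complex this follows from its genes, each of which was apart.

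Fold changes within the 34 followed transcript length and GC content. Over the 34 genes, fold change and length of the longest transcript had a Spearman rho of 0.844, and fold change and GC content one of -0.752. In 13024 genes whose mean log2 value reached 5, rho was 0.352 and -0.571. These are descriptions across genes of the same 6 libraries. The 17 shorter genes (1531 to 3526 bases) had a median log2 fold change of -0.23, with 15 negative. The 17 longer genes (3645 to 11130 bases) had one of 0.02, with 8 negative. Ccnb2 had the shortest transcript of the 34 and Cenpf the longest.

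A correction of each library for length and GC content left 33 of the 34 genes negative (97.1%), with a median of -0.16. The median over all genes tested was then -0.0018, and the share of all genes that were negative was not counted. Mki67 alone stayed positive, and went from 0.27 to 0.09 (limma adjusted p = 0.696). After the correction 0 members passed, where 0.0741% of all genes passed as lower. By the unadjusted limma p (under 0.05), 10 members were lower (29.4%) and 0 higher, and of all genes 7.23% were lower and 5.1% higher. Ccnb2 kept nearly its whole difference, -0.56 (limma adjusted p = 0.101), and Ccnb1 went to -0.43 (0.111). Cdc20 went to -0.30 and Plk1 to -0.28 (limma adjusted p = 0.199 and 0.330). The shorter genes then had a median of -0.18 and the longer ones of -0.13.

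**Figure D4:**
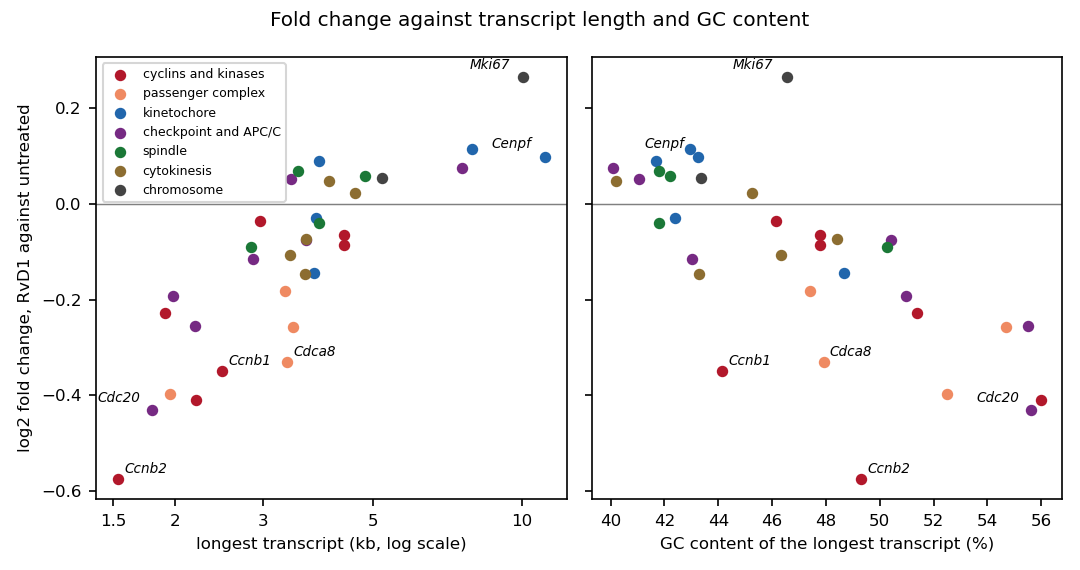
Log2 fold change (y axis) of the 34 genes against the length of the longest transcript in kb (left, log scale) and its GC content in percent (right), coloured by role. Short, GC-rich genes such as Cdc20 lie low and long genes such as Mki67 and Cenpf lie high.

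Other genes of the pathway came from lists grouped by known function. Among all tested genes, 0.556% passed as lower and 0.561% as higher. Of 14 APC/C subunits, 1 fell and 0 rose. Anapc11, the RING subunit that recruits the conjugating enzyme, had 9.87, 9.78 and 9.92 in untreated and 9.51, 9.25 and 9.45 in RvD1 libraries (log2 fold change -0.45 with SE 0.08, limma adjusted p = 0.0413). Its groups were apart. With length and GC corrected the call ended (-0.40, adjusted p = 0.0750 in limma). By unadjusted p under 0.05, 4 of the 14 were higher and 1 lower, and their median was 0.02. Among all tested genes 10.3% were higher and 9.65% lower by that p. Of 16 condensin and cohesin subunits, which shape and hold chromosomes, 1 rose and 0 fell. Stag2, a cohesin subunit, had 10.78, 10.77 and 10.77, and then 11.02, 11.27 and 11.16 (log2 fold change 0.38, limma adjusted p = 0.0473). That list had a median of 0.19, and by unadjusted p under 0.05 there were 10 higher and 2 lower genes. After the correction its median was 0.01 and Stag2 stood at 0.12 (limma adjusted p = 0.395). Both calls also ended in limma without any of the 3 untreated libraries or without RvD1 replicate 2 or 3.

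In the remaining lists 0 genes passed limma over all genes. By unadjusted p under 0.05, 9.65% of all tested genes were lower and 10.3% higher. Of 24 other regulators of mitotic entry and exit, 5 had lower and 1 had higher values by unadjusted p under 0.05 (median -0.11). The smallest p was that of Fzr1, the APC/C activator of late mitosis and G1 (log2 fold change -0.30, limma adjusted p = 0.0688). Of 28 other spindle and cytokinesis genes 7 were lower and 2 higher (median -0.10), led by Ckap5, a microtubule polymerase (0.21, limma adjusted p = 0.101). With length and GC corrected, Ckap5 stood at 0.039 and Fzr1 at -0.13 (limma adjusted p = 0.810 and 0.394). The spindle and cytokinesis list then had 11 lower and 0 higher genes (median -0.18), where 7.23% of all genes were lower and 5.1% higher. Of 36 other kinetochore and checkpoint genes 3 were lower and 2 higher (median -0.03), led by Bub3 (-0.20, limma adjusted p = 0.154). Of 16 transcription factors of the late-cycle programme 2 were lower and 1 higher (median 0.01). There the pocket protein Rbl2, part of the repressor complex, had 0.26 (limma adjusted p = 0.0841). Foxm1, an activator of late-cycle genes that is named after its value was seen, had -0.23 (limma adjusted p = 0.183). With the correction the medians of the kinetochore and transcription factor lists were both -0.11, so that of the transcription factors changed sign.

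Of 18 CDK inhibitors and p53 targets, 5 had lower and 6 had higher values by unadjusted p under 0.05 (median 0.05). The shares over all tested genes were 9.65% lower and 10.3% higher. Ccng2, an atypical cyclin of arrested cells, had the smallest p, with 8.50, 8.32 and 8.55 in untreated and 8.80, 9.05 and 8.95 in RvD1 libraries. These groups were apart (log2 fold change 0.47 with SE 0.09, limma adjusted p = 0.0519). With length and GC corrected, Ccng2 stood at 0.33 (limma adjusted p = 0.170). Sesn2, named because it passed after the correction, went from 0.33 to 0.47 (limma adjusted p = 0.0712 and 0.0286). Of 46 genes of G1/S entry and DNA replication 5 were lower and 3 higher (median -0.08, 34 negative). The smallest p there was that of E2f2, with a log2 fold change of -0.35 (limma adjusted p = 0.107).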

How the data were processed

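RNA was sequenced in 6 libraries, 3 untreated and 3 RvD1, grouped by their titles. Per the labels' protocols, each library took 100 to 400 ng of RNA. The submitters' processing notes name TopHat2 2.0.7 and mm10. A counter, an annotation release and a normalization method are not named there. The deposited table holds the authors' log2 values per Ensembl gene, described as normalized per the file headers, with a floor of 0 (1 normalized read or less). The log2 scale was inferred from the values, whose antilogs summed to 12.4 to 12.8 M in every library.

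Genes above 0 in at least 3 libraries (18899) were tested with limma 3.58.1 (R 4.3.3, eBayes with a mean trend, treatment as the only term, two-sided, Benjamini-Hochberg adjusted over all tested genes, threshold 0.05). The fit had 4 residual and 4.62 prior degrees of freedom and was tested on simulated data. Intervals are 95% intervals of that fit. Lengths, GC content and coordinates came from GENCODE M21 on mm10, which held 36308 of the 38087 identifiers (95.3%), and promoters from RefSeq on GRCm38.p6. The correction subtracted splines in log2 length and GC content from each library. Estimated depth limits precision for low genes; alternatives (scaling, filter, pseudocount, variance prior, library weights, replicate block, correction, each library left out) were refitted.

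Members and lists were chosen with earlier results of these data known. Values in every library were given for members past the test, members with groups apart and the 10 smallest p-values. In other lists up to 3 genes past the test are named, or else the gene with the smallest p, which is given by its fold change and adjusted p (for Ccng2 also by library). Tables were handled in Python 3.11.15 with pandas 2.3.3 and numpy 2.4.6, and figures drawn with matplotlib 3.10.9. Values of some marker genes are not reported here.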

Additional observations from a re-analysis of the deposited data

How the results depend on the processing

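Ccnb2 kept its direction in every refit listed here, from -0.64 to -0.47 on the log2 scale. Its call ended with no filter, with a pseudocount of 8, without a mean trend, after the length and GC correction and without any library but RvD1 replicate 1. The number of members past the limma test, 1 as reported, was 0 with no filter (7 lower and 0 higher by unadjusted p under 0.05), 0 with a pseudocount of 8 (8 and 1), 0 without a mean trend (6 and 0) and 0 after the length and GC correction (10 and 0). It was 2 (Ccnb2 and Cdc20) among genes with a mean of at least 5, 8 with the replicate block, 9 with the block and the correction together, and 0 to 3 with 1 library left out (6 to 12 lower and 0 to 2 higher by unadjusted p). Of all genes, 211 passed as reported, 2 with no filter, 464 with a mean of at least 5, 1 without a mean trend, 566 with library weights, 1896 with the replicate block, 31 after the correction, 765 with both, and 0 to 451 with 1 library left out. The cause of these shifts was not tested.

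The labels do not say whether the replicate numbers pair the samples. Deviations of same-numbered libraries correlated at 0.301, -0.0801 and 0.417 for numbers 1, 2 and 3, over 13176 genes. Untreated replicate 1 with RvD1 replicate 3 gave -0.393, and untreated replicate 3 with RvD1 replicate 1 gave -0.383. The libraries numbered 2 did not correlate best with each other. Deviations of 3 libraries from their mean cancel out, so a library between the others deviates little. In the macrophage sum replicate 2 lay between the others, at 118604 in untreated (109921 and 141152 in replicates 1 and 3). In RvD1 it was 124734 (113085 and 143522). These correlations therefore cannot decide whether the numbers pair the samples. With the replicate block Ccnb1, Ccnb2, Plk1, Aurkb, Incenp, Cdca8 and Cdc20 were lower and Mki67 higher in limma.

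In the other lists, with the replicate block, 1 of 16 late-cycle transcription factors and 5 of 24 entry and exit regulators passed. So did 3 of 14 APC/C subunits, 4 of 28 spindle and 1 of 36 kinetochore genes. Further counts were 6 of 16 for condensin and cohesin, 6 of 18 for CDK inhibitor and 7 of 46 for G1/S genes. Among all 18899 tested genes, 1896 passed in that fit. With block and correction together, 765 of all genes passed. List counts were then 2 for entry and exit, 1 for spindle, 2 for kinetochore, 3 for CDK inhibitor and 3 for G1/S genes. With library weights they were 1 for entry and exit, 2 for APC/C, 3 for condensin and cohesin and 2 for CDK inhibitor genes. With a mean of at least 5 they were 1 for entry and exit, 2 for condensin and cohesin and 1 for CDK inhibitor genes. The robust variance prior gave 1 CDK inhibitor gene. The condensin and cohesin count was 0 with median centring and with a pseudocount of 8. It and the APC/C count were 0 with no filter, 0 without a mean trend and 0 after the correction, which gave 1 CDK inhibitor gene. With 1 library left out, counts ran from 0 to 1 for transcription factors, entry and exit regulators and APC/C subunits, and from 0 to 2 for condensin and cohesin, CDK inhibitor and G1/S genes.

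After the correction, with or without the block, signs turned negative for Cenpe (-0.0851), Cenpf (-0.131), Nuf2 (-0.0611), Bub1 (-0.099), Mad2l1 (-0.165), Kif11 (-0.103), Nusap1 (-0.0726), Ect2 (-0.131), Anln (-0.0912), Top2a (-0.0985). Hmmr was 0.0328 with library weights. With 1 library left out, log2 fold changes crossed 0 for Ccna2 (-0.0898 to 0.0221), Tpx2 (-0.139 to 0.000762), Ndc80 (-0.144 to 0.0773), Bub1 (-0.089 to 0.179), Bub1b (-0.156 to 0.0241), Ttk (-0.257 to 0.036), Hmmr (-0.139 to 0.0705), Anln (-0.0238 to 0.0994), Top2a (-0.0216 to 0.165). None of these genes passed in these fits.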
